A study of Arabidopsis thaliana with 4 samples.

Results

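The 16 genes described here are those of the Arabidopsis thaliana mitochondrial genome that the array read with a probe set of their own, a probe set being a group of short probes summed into 1 value. They were found by matching each probe set with a single gene in the platform annotation to a gene of the mitochondrial genome in the TAIR10.1 gene table, by symbol or synonym. This gave 23 probe sets for 16 genes, out of 13356 genes measured in all, and no filter on low values was applied. The table holds 32 protein-coding symbols on the mitochondrial genome. A further 11 of them (atp1, atp9, cob, cox3, rpl16, rpl2, rpl5, rps12, rps3, rps4 and rps7) were read only by probe sets shared with another gene, and 5 (atp4, atp6, atp8, ccmC and nad3) were not measured here. By role, 8 of the 16 encode subunits of complex I, 2 subunits of complex IV and 4 proteins of cytochrome c maturation, and 2 fall in a class of maturase and transport. Complexes III and V, the ribosomal proteins and open reading frames of unknown function have 0 members each.

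Plant mitochondria kept a small genome that encodes core subunits of the respiratory chain, proteins that attach haem to cytochrome c, some ribosomal proteins and the RNAs of translation, while most mitochondrial proteins are encoded in the nucleus. Its transcripts are made by phage-type RNA polymerases and not by RNA polymerase II, and they are then spliced, edited and trimmed by nuclear-encoded proteins. Several genes lie in pieces far apart on the genome, among them nad1, nad2 and nad5, whose transcripts are joined by trans-splicing. Mitochondrial RNAs carry poly(A) tails mostly in passing, as a mark for decay, and the primer used for reverse transcription is not given in the sources used here.

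The study asked how the loss of SFR6 alters transcript levels in the cold. SFR6 is part of Mediator, which relays signals from DNA-bound regulators to RNA polymerase II. All seedlings were 7 days old and were held at 5 °C for 6 h. The lines were sfr6-3 (WiscDsLox504A08), sfr6-2 (SALK_048091) and wild-type Col-0, and each mutant is a single insertion line. Each mutant was treated beside its own Col-0, which gave 2 experiments and 4 arrays, 1 for each line in each experiment. No warm-grown group is part of these comparisons. RNA came from whole seedlings grown on plates, so in each value fewer cells of a type and less RNA per cell cannot be told apart, and neither can fewer mitochondrial genomes per cell. The annotation names no probe set for SFR6 alone, and the genotypes therefore rest on the labels.

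Values are log2 expression values. The trimmed mean of every array was 500 on the linear scale, and the median over all genes was 6.87 in sfr6-3 and 6.70 in its Col-0, and 6.87 in sfr6-2 and 6.77 in its Col-0. A level of 6.46, the 40th percentile of the mean values of all probe sets, serves below to mark dim genes. Only 5 of the 16 genes (nad4, cox1, ccb382, ccb452 and orfX) had a mean at or above this level, and these 5 lay above it on all 4 arrays. Of the other 11, 7 were under it on all arrays and 4 were above it on some. The probe set for RCA, a green tissue gene and the 1 measured of 4 such markers, read between 14.74 and 14.95, and that for PYK10, a root gene and the 1 measured of 3, read 13.40 in sfr6-3 and 13.88 in its Col-0, and 14.25 in sfr6-2 and 14.32 in its Col-0. None of the 7 seed markers or 2 pollen markers had a single-gene probe set. The 3′ over 5′ log2 differences, a check of RNA integrity, lay between 0.18 and 0.45 for GAPDH, 0.66 and 0.94 for actin and -0.30 and 0.30 for ubiquitin. The bacterial transcripts added to the RNA averaged 8.19 in sfr6-3 and 8.35 in its Col-0, and 8.03 in sfr6-2 and 8.31 in its Col-0, lower in each mutant than in its own Col-0. The hybridisation controls (bioB, bioC, bioD and cre) were also lower in each mutant, at 10.64 in sfr6-3 and 10.80 in its Col-0, and 10.68 in sfr6-2 and 10.83 in its Col-0.

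**Figure D1:**
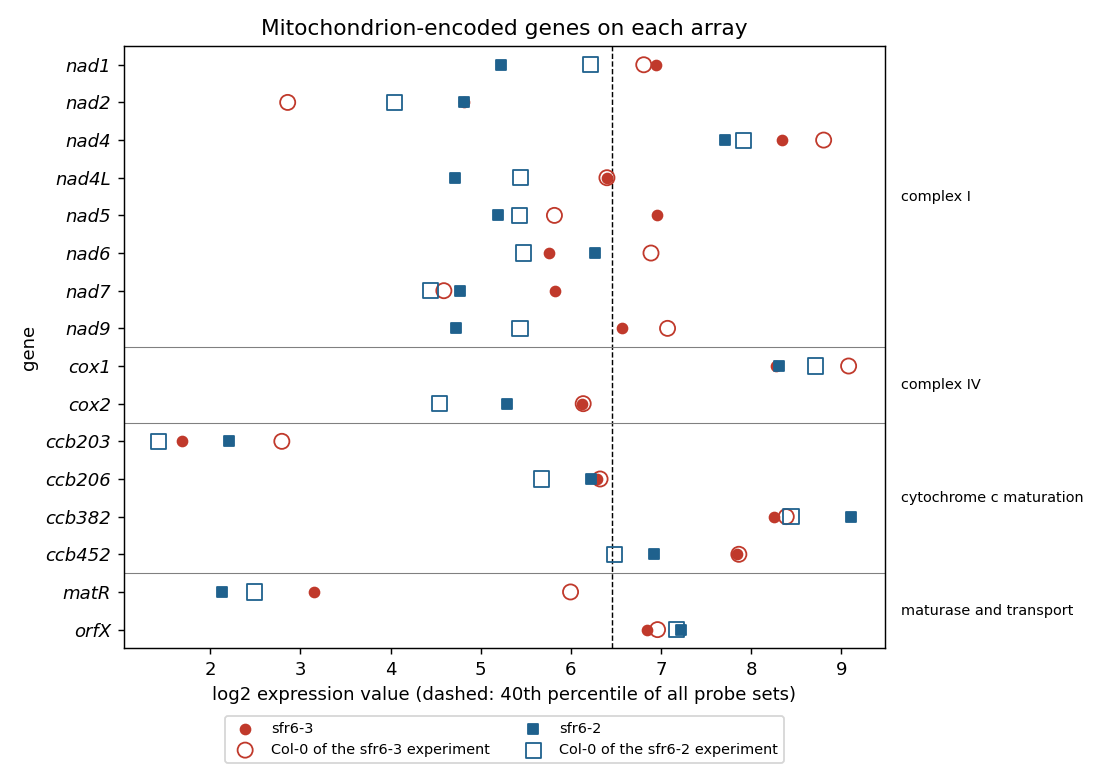
Deposited log2 expression values (horizontal axis) of the 16 mitochondrion-encoded genes, grouped by role; circles are the sfr6-3 experiment, squares the sfr6-2 experiment, filled symbols the mutant and open symbols Col-0, with 1 array per symbol. The dashed line is the level of 6.46, which 5 genes lie above on all 4 arrays, and for 9 genes both squares lie left of both circles.

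No mitochondrion-encoded gene passed the adjusted threshold between the sfr6 mutants and Col-0. The 5 brighter genes lay within 2-fold of Col-0 in both lines, with log2 ratios between -0.81 and 0.66. In sfr6-3 3 genes (nad6, ccb203 and matR) were at least 2-fold lower than in its Col-0 and 3 (nad2, nad5 and nad7) at least 2-fold higher, all dim, against 0 and 0 in sfr6-2. The difference between the lines in these counts was not tested. In limma, with experiment as a block and Benjamini-Hochberg adjustment over all 13356 genes at 0.05, 0 of the 16 were called lower and 0 higher, and 1, cox1, had an unadjusted p under 0.05. Among all genes, 0.756% were called lower and 0.0973% higher, and 11.3% had an unadjusted p under 0.05. The adjusted p of the 16 ran from 0.351 to 0.986. With 1 array per line and experiment, these p-values reflect only the spread among these 4 arrays and borrow most of it from other genes.

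The shares of 2-fold differences in the 16 genes stand beside large shares in the whole table. In sfr6-3 11.5% of all genes were at least 2-fold lower than in its Col-0 and 12.8% at least 2-fold higher, and in sfr6-2 the shares were 10.7% and 12.7%. Among genes with a mean at or above 6.46 they were 3.84% lower and 3.75% higher in sfr6-3, and 3.58% and 1.67% in sfr6-2, beside 0 of the 5 bright members. Among genes with a mean under 6.46, which most of the 16 are, the shares were 20.4% lower and 23.4% higher in sfr6-3, and 19.1% and 25.7% in sfr6-2. The median log2 ratio of the 16 was -0.08 in sfr6-3 and 0.19 in sfr6-2, while that of all genes was 0.11 in both. The 2 ratios had opposite signs for 9 of the 16 genes, were both below 0 for 5 and both above 0 for 2. Over all genes 42.1% had opposite signs, 21.5% were below 0 in both and 36.4% above 0 in both.

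**Figure D2:**
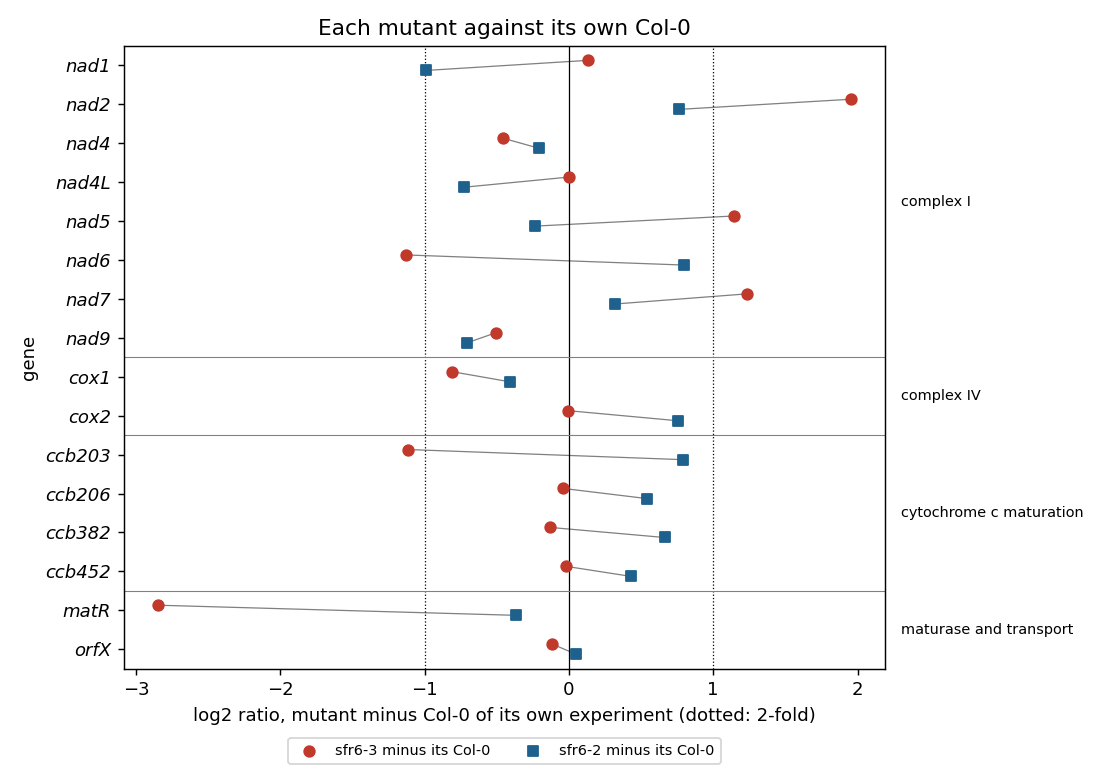
Log2 ratio of each mutant to the Col-0 of its own experiment (horizontal axis) for the 16 genes; circles are sfr6-3, squares sfr6-2, and a grey line joins both ratios of a gene. Dotted lines mark 2-fold; 6 circles and 0 squares lie beyond them, and the pair straddles 0 for 9 genes.

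Complex IV, cytochrome c oxidase, passes electrons to oxygen, and cox1 encodes its catalytic subunit with the haem-copper centre. cox1 read 8.27 in sfr6-3 and 9.08 in its Col-0, and 8.31 in sfr6-2 and 8.71 in its Col-0. Both mutant arrays lay below both Col-0 arrays, the only 1 of the 16 for which the groups separated in this direction, against 12.3% of all genes. The log2 ratio was -0.81 in sfr6-3 and -0.41 in sfr6-2, and the fitted difference was -0.61 (SE 0.22, limma adjusted p = 0.351, unadjusted p = 0.021). Mutant and Col-0 arrays did not overlap for 3 of the 16 genes, cox1, nad2 and nad7, against 35.8% of all genes. Across the alternatives tried, the adjusted p of cox1 ran from 0.199 to 0.999.

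cox2 encodes the subunit that takes electrons from cytochrome c. It read 6.13 in sfr6-3 and 6.14 in its Col-0, and 5.29 in sfr6-2 and 4.54 in its Col-0. The sfr6-3 pair was level, and the sfr6-2 mutant lay above its Col-0 by 0.75 on the log2 scale, with all values dim. The fitted difference was 0.37 (SE 0.62, limma adjusted p = 0.874).

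Complex I, NADH dehydrogenase, is the entry point of electrons from NADH, and the mitochondrial nad genes encode core parts of its membrane arm and, with nad7 and nad9, of its matrix arm. The median log2 ratio of the 8 genes was 0.07 in sfr6-3 and -0.22 in sfr6-2. nad4, a proton-pumping subunit of the membrane arm, was the only complex I member above the level of 6.46 on every array. It read 8.35 in sfr6-3 and 8.80 in its Col-0, and 7.71 in sfr6-2 and 7.92 in its Col-0. Each mutant lay below its own Col-0, but sfr6-3 lay above the Col-0 of the other experiment. The fitted difference was -0.33 (SE 0.23, limma adjusted p = 0.628).

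nad2, another pumping subunit made from trans-spliced parts, read 4.81 in sfr6-3 and 2.86 in its Col-0, and 4.81 in sfr6-2 and 4.05 in its Col-0. Both mutants lay above both Col-0 arrays, at log2 ratios of 1.95 and 0.77, but every value was under 6.46. The fitted difference of 1.36 had a standard error of 0.92 (limma adjusted p = 0.623). nad7, a matrix-arm subunit, had the same order of groups, at 5.83 in sfr6-3 and 4.59 in its Col-0, and 4.77 in sfr6-2 and 4.45 in its Col-0. Its log2 ratios were 1.23 and 0.32, and the fitted difference was 0.78 (SE 0.76, limma adjusted p = 0.756). In both genes the larger ratio came from the sfr6-3 experiment.

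nad9, the other matrix-arm subunit, read 6.57 in sfr6-3 and 7.07 in its Col-0, and 4.73 in sfr6-2 and 5.44 in its Col-0. The mutant was below its own Col-0 in both experiments, by 0.51 and 0.71 on the log2 scale, and the distance between the experiments was larger than either. The fitted difference was -0.61 (SE 0.52, limma adjusted p = 0.712).

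The remaining complex I genes encode subunits of the membrane arm. nad5 read 6.96 in sfr6-3 and 5.82 in its Col-0, and 5.19 in sfr6-2 and 5.43 in its Col-0. nad6 read 5.76 in sfr6-3 and 6.89 in its Col-0, and 6.27 in sfr6-2 and 5.47 in its Col-0. The alleles went opposite ways in both genes, nad5 at log2 ratios of 1.14 in sfr6-3 and -0.24 in sfr6-2, and nad6 at -1.13 in sfr6-3 and 0.80 in sfr6-2. nad1 read 6.94 in sfr6-3 and 6.81 in its Col-0, and 5.23 in sfr6-2 and 6.22 in its Col-0, which is a log2 ratio of -0.99 in sfr6-2, just inside 2-fold. nad4L read 6.40 in sfr6-3 and in its Col-0, and 4.72 in sfr6-2 and 5.44 in its Col-0. In nad1 and nad4L the sfr6-3 pair was nearly level and sfr6-2 was the lowest array.

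The cytochrome c maturation genes, known as ccm genes and listed by the annotation under older ccb names, encode a bacterial-type system that moves and attaches haem in the intermembrane space. ccb382, now ccmFN1, and ccb452, now ccmFC, belong to the haem ligation part and were the bright members of the class. ccb382 read 8.26 in sfr6-3 and 8.39 in its Col-0, and 9.10 in sfr6-2 and 8.44 in its Col-0. The sfr6-2 array stood above the other 3, which lay close together, and the fitted difference was 0.27 (SE 0.25, limma adjusted p = 0.738). ccb452 read 7.84 in sfr6-3 and 7.86 in its Col-0, and 6.92 in sfr6-2 and 6.49 in its Col-0. Its sfr6-3 pair was level while both arrays of the sfr6-2 experiment were lower, and the fitted difference between mutants and Col-0 was 0.21 (SE 0.32, limma adjusted p = 0.863).

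ccb206, now ccmB, encodes a membrane part of a transporter of the same system. It read 6.29 in sfr6-3 and 6.32 in its Col-0, and 6.22 in sfr6-2 and 5.68 in its Col-0, with the Col-0 of the sfr6-2 experiment standing below the other 3 arrays. ccb203, now ccmFN2, which carries another piece of the ligation protein that is split in Arabidopsis, was very dim at 1.68 in sfr6-3 and 2.79 in its Col-0, and 2.21 in sfr6-2 and 1.42 in its Col-0. All 4 genes of the class had a ratio below 0 in sfr6-3 and above 0 in sfr6-2, with class medians of -0.09 and 0.60. In sfr6-3, however, ccb206, ccb382 and ccb452 were near level with Col-0, at -0.04, -0.13 and -0.02. Only for ccb203 in sfr6-3, at -1.11, was the difference 2-fold or more, and the fitted adjusted p in limma ran from 0.738 for ccb382 to 0.980 for ccb203.

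matR encodes a maturase-related protein and lies within an intron of nad1. It read 3.15 in sfr6-3 and 6.00 in its Col-0, and 2.13 in sfr6-2 and 2.49 in its Col-0. The Col-0 treated beside sfr6-3 stood far above the other 3, and every value was under 6.46. The log2 ratio of -2.85 in sfr6-3, against -0.36 in sfr6-2, gave the largest gap between the alleles among the 16, and the fitted difference of -1.60 had a standard error of 1.1 (limma adjusted p = 0.625). orfX, now mttB, encodes a protein of a membrane translocase of the twin-arginine type. It read 6.85 in sfr6-3 and 6.96 in its Col-0, and 7.22 in sfr6-2 and 7.17 in its Col-0, at log2 ratios of -0.11 and 0.050 (fitted difference -0.03, SE 0.34, limma adjusted p = 0.986).

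More of the mitochondrion-encoded genes stood lower on both arrays of the sfr6-2 experiment than stood apart between genotypes. The counts were 9 of the 16, against 19.8% of all genes, and 3 of the 16, against 35.8%. The comparison of the experiments was added after the values had been seen, and it sets the sfr6-2 experiment against the sfr6-3 experiment in Col-0 and in the mutants apart. Between the mutants the experiment and the allele change together and cannot be told apart, so only the Col-0 pair compares the same genotype. The fitted difference between experiments draws on both pairs and therefore holds any difference between the alleles. For 13 of the 16 the fitted difference between experiments was larger in size than that between mutants and Col-0, against 51.9% of all genes. Both arrays of the sfr6-2 experiment lay below both arrays of the sfr6-3 experiment for 9 of the 16 genes (nad1, nad4, nad4L, nad5, nad9, cox2, ccb206, ccb452 and matR), against 19.8% of all genes. They lay above both for 2, ccb382 and orfX, and the share of all genes in that direction was not counted. The difference was below 0 in Col-0 and in the mutants alike for 10 of the 16, against 28.2% of all genes. It was above 0 in both for 2 and of opposite signs for 4, for which the shares of all genes were not counted either. Taken apart, it was below 0 for 11 of the 16 between the mutants and for 13 between the Col-0 arrays. Over all 13356 genes the counts were 6583 and 6332. The Col-0 difference and the mutant difference share no array.

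The median difference between experiments over the 16 genes was -0.74 between the mutants and -0.77 between the Col-0 arrays, while over all genes it was 0.01 and 0.04. Of the 16, 6 were at least 2-fold lower in sfr6-2 than in sfr6-3 and 0 at least 2-fold higher, against 12.6% and 11.9% of all genes. In Col-0, 6 were at least 2-fold lower and 1 at least 2-fold higher in the sfr6-2 experiment, against 14.0% and 12.3% of all genes. Among genes with a mean at or above 6.46 the shares were 5.26% lower and 3.50% higher between the mutants, and 5.61% and 4.71% between the Col-0 arrays. Among genes with a mean under 6.46 they were 21.2% lower and 21.7% higher between the mutants, and 23.8% and 21.3% between the Col-0 arrays. The 69 chloroplast-encoded genes on the array, the other organelle genome, had medians of 0.20 between the mutants and -0.04 between the Col-0 arrays. Of the 69, 2 were at least 2-fold lower and 4 at least 2-fold higher between the mutants, and 7 and 0 between the Col-0 arrays. limma called 4 of them lower and 0 higher between the experiments. They are brighter as a set, with 68 of the 69 at or above 6.46 in mean, against 5 of the 16.

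In the same limma fit 0 of the 16 passed the adjusted threshold for the difference between experiments, against 2.09% of all genes called lower and 0.951% called higher. Of the 16, 5 had an unadjusted p under 0.05, all lower in the sfr6-2 experiment, against 14.7% of all genes (1020 lower and 938 higher). They were 2 of the 5 bright genes, against 21.2% of genes with a mean at or above 6.46, and 3 of the 11 dim ones, against 7.04% of genes under it. The 5 were ccb452 at -1.15 (SE 0.32, adjusted p = 0.112), nad9 at -1.74 (SE 0.52, adjusted p = 0.147), nad4 at -0.76 (SE 0.23, adjusted p = 0.151), nad1 at -1.15 (SE 0.49, adjusted p = 0.322) and nad4L at -1.32 (SE 0.58, adjusted p = 0.336). When genes with a mean under 6.46 were left out before the fit, ccb452 passed (adjusted p = 0.0172) and nad4 did not (adjusted p = 0.0561). The bright genes did not all go one way, with ccb382 at 0.45 and orfX at 0.29 above 0 and cox1 at -0.17. Over the 5 bright genes the median difference was 0.03 between the mutants and -0.37 between the Col-0 arrays, and over the 11 dim ones it was -1.02 and -0.96. With every value under 6.46 raised to that level, 7 of the 16 fitted differences were below 0, against 13 as deposited, and their median was 0.00, the 7 genes under it on all arrays then standing at 0.

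Some array controls also differed between the experiments. 25S ribosomal RNA read 13.91 in sfr6-2 and 13.38 in sfr6-3, and 13.94 in the Col-0 of the sfr6-2 experiment and 13.65 in that of the sfr6-3 experiment. The 3′ over 5′ difference of actin was 0.75 in sfr6-2 and 0.66 in sfr6-3, and 0.94 and 0.72 in the Col-0 treated beside them, higher in the sfr6-2 experiment in the mutants and in Col-0. That of ubiquitin was 0.14 in sfr6-2 and 0.30 in sfr6-3, and -0.30 and 0.14 in the Col-0 treated beside them, lower in the sfr6-2 experiment in the mutants and in Col-0. That of GAPDH was 0.20 in sfr6-2 and 0.18 in sfr6-3, and 0.31 and 0.45 in the Col-0 treated beside them, so the mutants and Col-0 went opposite ways. The hybridisation controls were nearly level, at 10.68 in sfr6-2 and 10.64 in sfr6-3, and 10.83 and 10.80 in the Col-0 treated beside them. The root gene PYK10 was higher in the sfr6-2 experiment, by 0.86 between the mutants and by 0.43 between the Col-0 arrays. The part of any of these in the difference between the experiments was not tested.

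**Figure D3:**
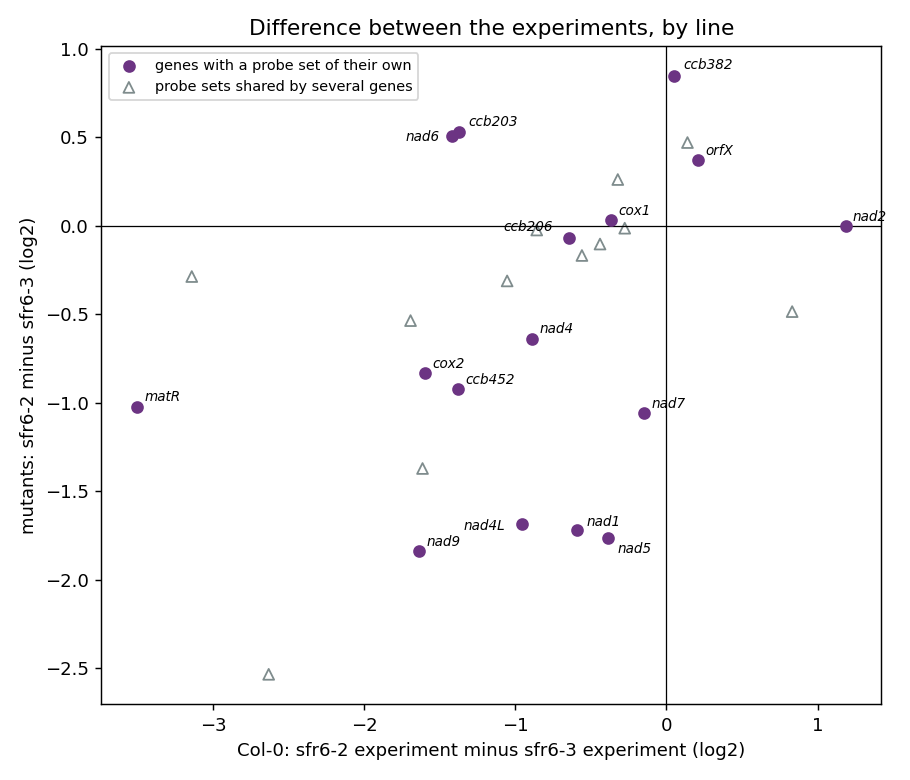
Log2 difference between the sfr6-2 experiment and the sfr6-3 experiment in Col-0 (horizontal axis) and in the mutants (vertical axis); filled points are the 16 genes, and open triangles the 12 probe sets shared by several genes. Of the 16 points, 10 lie in the lower left part, where a gene is lower in the sfr6-2 experiment in Col-0 and between the mutants, as do 9 of the 12 triangles.

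Genes with several probe sets gave a view of how well 1 value stands for a gene. nad1 had 7 single-gene probe sets and is represented above by the set of highest mean. The 7 disagreed in the sfr6-2 experiment, where the log2 ratio of sfr6-2 to its Col-0 ran from -3.73 to 0.88, and was -3.69, -2.57 and -3.73 in the fourth, sixth and seventh by falling mean. On those 3 the sfr6-2 array read 2.45, 2.87 and 1.39, far below its Col-0 at 6.14, 5.43 and 5.12. The other 4 read between 4.91 and 5.68 in sfr6-2 and between 4.80 and 6.22 in its Col-0. In sfr6-3 the ratios of the 7 ran from -1.91 to 0.34, and 6 of them were between -0.31 and 0.34. Between the experiments 6 of the 7 were lower in the sfr6-2 mutant than in the sfr6-3 mutant, the fifth being the exception at 1.27, and 6 were lower in the Col-0 of the sfr6-2 experiment, the sixth being the exception at 0.38. Which exon, intron or splice product each probe set reads is not given in the sources used here. The differences between the probe sets rest on single arrays and were not tested.

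nad5 had 2 probe sets with unlike patterns. The brighter one gave ratios of 1.14 in sfr6-3 and -0.24 in sfr6-2. The dimmer one read 5.08 in sfr6-3 and 4.96 in its Col-0, and 5.49 in sfr6-2 and 3.61 in its Col-0, with ratios of 0.12 and 1.88. The sign of the sfr6-2 ratio of nad5 therefore depends on the probe set.

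**Figure D4:**
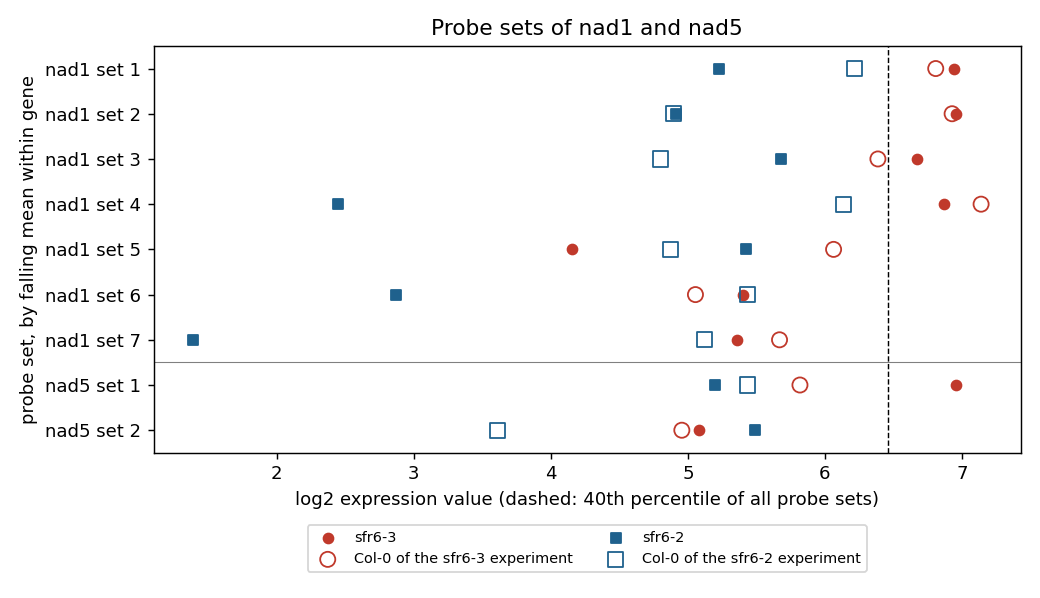
Deposited log2 expression values (horizontal axis) of the 7 probe sets of nad1 and the 2 of nad5, ordered by falling mean within each gene; symbols are the 4 arrays, filled for mutants and open for Col-0. In nad1 sets 4, 6 and 7 the sfr6-2 array lies at 2.45, 2.87 and 1.39, left of the other arrays.

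Chromosome 2 of Arabidopsis holds a large, nearly identical copy of the mitochondrial genome, and 11 of the 12 shared probe sets pair a mitochondrial gene with a nuclear gene of that copy. The remaining one is shared by rps3 and rpl16, 2 neighbouring mitochondrial genes of the ribosome. For the 11 the RNA of the organelle and that of the nuclear copy cannot be told apart. The single-gene probe sets used above were chosen by annotation alone, without probe sequences. Whether they also read RNA of the nuclear copy was not tested, so their values are not known to be specific to the organelle. The shared probe sets carry the only values for complexes III and V and for the ribosomal proteins. These are therefore given as they stand, outside the fit.

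For complex V, the ATP synthase, the shared probe set of atp1, the alpha subunit of its catalytic head, read 9.10 in sfr6-3 and 9.76 in its Col-0, and 8.79 in sfr6-2 and 8.70 in its Col-0. That of atp9, whose protein forms the rotating ring, read 9.96 in sfr6-3 and 10.14 in its Col-0, and 8.59 in sfr6-2 and 8.52 in its Col-0. In both the mutant lay within 2-fold of its own Col-0, and for atp9 the experiments stood apart, by -1.37 in the mutants and -1.61 in Col-0 on the log2 scale. The shared probe set of cob, the cytochrome b of complex III, read 6.05 in sfr6-3 and 6.82 in its Col-0, and 5.88 in sfr6-2 and 6.26 in its Col-0. That of cox3, a core subunit of complex IV, read 6.45 in sfr6-3 and 6.99 in its Col-0, and 6.71 in sfr6-2 and 6.67 in its Col-0. cob lay below Col-0 in both lines, at -0.77 and -0.38, and cox3 in sfr6-3 alone, at -0.54.

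Of the ribosomal protein genes, the probe set of rps3 and rpl16 read 7.79 in sfr6-3 and 8.15 in its Col-0, and 7.68 in sfr6-2 and 7.71 in its Col-0. rps7 read 4.64 in sfr6-3 and 3.80 in its Col-0, and 4.35 in sfr6-2 and 0.66 in its Col-0, so that its ratio of 3.69 in sfr6-2 was taken against a very dim value. A probe set that nad1 shares with AT2G07702 was the only one of the 12 that was at least 2-fold lower in both lines, at -2.33 and -2.0, with mutant values of 2.98 and 3.45 and Col-0 values of 5.31 and 5.45. It is dim, it was singled out after its values were seen, and the nad1 sets above did not share its pattern. Over the 12 shared probe sets the median log2 ratio was -0.43 in sfr6-3 and 0.05 in sfr6-2. Of the 12, 9 were lower in the sfr6-2 experiment in Col-0 and between the mutants alike, against 28.2% of all genes. The 20 nuclear genes that lie between these copies on chromosome 2 and have a single-gene probe set were also compared between the experiments. Their medians were -0.63 between the mutants and -0.74 between the Col-0 arrays. The sfr6-2 experiment was the lower for 11 of the 20 between the mutants and for 13 between the Col-0 arrays. Over all 13356 genes the counts were 6583 and 6332. Between the mutants 10 of the 20 were at least 2-fold lower and 2 higher, against 12.6% and 11.9% of all genes. Between the Col-0 arrays 8 were lower and 0 higher, against 14.0% and 12.3%. Among genes with a mean under 6.46 the shares were 21.2% and 21.7% between the mutants, and 23.8% and 21.3% between the Col-0 arrays. Only 4 of the 20 had a mean at or above 6.46, and limma called 0 lower and 0 higher between the experiments. Whether their probe sets also read mitochondrial RNA was not tested.

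The respiratory complexes are built from mitochondrial and nuclear subunits, so the nuclear partners were set beside the 16 genes. Of 127 nuclear genes listed for respiration, mitochondrial gene expression and mitochondrial stress, 63 had a single-gene probe set, and 54 of these had a mean at or above 6.46. limma called 0 of the 63 lower and 0 higher, and 1 was lower and 9 were higher at an unadjusted p under 0.05. That is 15.9% of the 63, beside 11.3% of all genes and 15.3% of genes with a mean at or above 6.46. By direction, 682 of all genes were lower and 822 higher at that p, and 524 and 576 of those at or above 6.46. The lean of the 63 to higher values was not tested. Their median log2 ratio was 0.15 in sfr6-3 and 0.20 in sfr6-2, close to that of all genes. Between the experiments their median was 0.21 in the mutants and 0.22 in Col-0, and the 5 bright mitochondrial genes had 0.03 and -0.37. limma called 1 of the 63 for the difference between experiments, the stress gene AT5G51440, lower in the sfr6-2 experiment by log2 differences of -2.07 in the mutants and -2.30 in Col-0 (adjusted p = 0.00959).

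By complex, the fitted median was 0.24 for the 17 nuclear genes of complex I, against -0.25 for the 8 mitochondrial ones, and 0.07 for the 9 nuclear genes of complex IV, against -0.12 for the 2 mitochondrial ones. All 17 nuclear genes of complex I had a mean at or above 6.46, against 1 of the 8 mitochondrial ones. By line, the median of the 17 was 0.19 in sfr6-3 and 0.29 in sfr6-2, and that of the 8 was 0.07 and -0.22. These are descriptions, and the gap between the genomes was not tested. The medians were 0.10 for 4 genes of complex II, 0.13 for 13 of complex III and cytochrome c, and 0.17 for 4 of complex V. In complex I AT2G33220 stood at log2 ratios of 0.22 in sfr6-3 and 0.68 in sfr6-2 (limma adjusted p = 0.430). In complex IV AT3G62400 stood at 0.36 and 0.70 (adjusted p = 0.333), and AT3G15640 at 0.59 and 0.48 (adjusted p = 0.305).

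Complex II, succinate dehydrogenase, is encoded by the nucleus alone in Arabidopsis, and its members went opposite ways. SDH2-1, 1 of the genes for its iron-sulphur subunit, read 10.04 in sfr6-3 and 10.66 in its Col-0, and 10.00 in sfr6-2 and 10.92 in its Col-0. Both mutants lay below both Col-0 arrays, as for 12.3% of all genes. The fitted difference was -0.77 (SE 0.18, limma adjusted p = 0.129). Among the alternatives, the adjusted p was 0.0433 when genes with a mean under 6.46 were left out and 0.140 after quantile normalization. It was 0.682 without the variance trend and 0.835 without the block. SDH1-2, a gene for the flavoprotein subunit, read 6.08 in sfr6-3 and 2.27 in its Col-0, and 6.43 in sfr6-2 and 4.89 in its Col-0, a fitted 2.67 (adjusted p = 0.285) on dim values. SDH1-1, the other flavoprotein gene, stood at 0.46 (adjusted p = 0.389).

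The other lists were small. Of 6 measured genes for mitochondrial transcription and RNA processing, AT5G15700 read 6.80 in sfr6-3 and 5.65 in its Col-0, and 7.08 in sfr6-2 and 5.77 in its Col-0. Both mutants lay above both Col-0 arrays, while 35.8% of all genes had no overlap in either direction. The fitted difference was 1.23 (SE 0.45, limma adjusted p = 0.360). In the same list AT5G14580 went opposite ways, at 1.47 in sfr6-3 and -0.59 in sfr6-2, and the list's fitted median was 0.18. Of 4 measured mitochondrial stress genes AT5G51440 stood at 0.79 and 1.01 (adjusted p = 0.351), with a list median of 0.57. Of 14 genes listed for alternative respiration, which bypasses proton pumping, 5 were measured (NDB1, NDB2, NDB3, NDB4 and NDC1), none of them an alternative oxidase. Their median was 0.28, and NDB4, an external NADH dehydrogenase, stood at 0.15 in sfr6-3 and 2.02 in sfr6-2 on dim values. CCMH, the 1 measured nuclear gene of cytochrome c maturation, stood at -0.26 in sfr6-3 and 1.19 in sfr6-2, with a mean under 6.46 and its lowest value, 5.40, in the Col-0 of the sfr6-2 experiment.

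**Figure D5:**
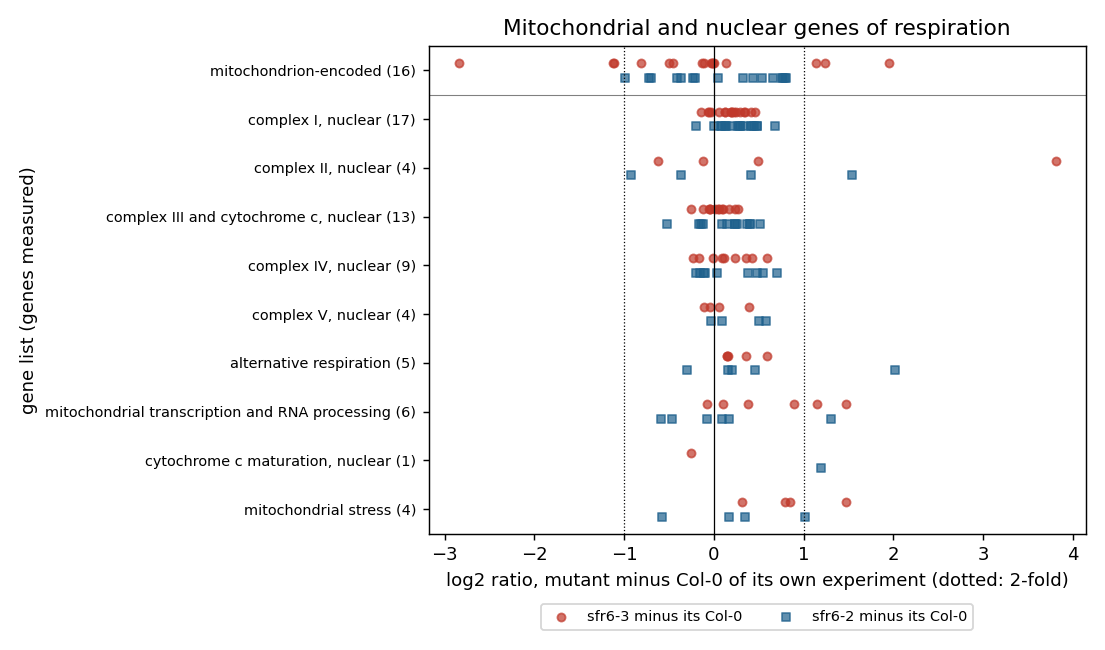
Log2 ratio of each mutant to the Col-0 of its own experiment (horizontal axis) for the 16 mitochondrion-encoded genes (top row) and the nuclear lists, with the number of genes measured in brackets; each point is a gene, circles are sfr6-3 and squares sfr6-2. The 17 nuclear genes of complex I lie between -0.20 and 0.68, while the mitochondrion-encoded genes spread from -2.85 to 1.95.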

How the data were processed

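Total RNA of whole seedlings was labelled as biotin cRNA and hybridised to 4 single-colour arrays, which were grouped by the plant line in the labels. The deposited log2 values were made by the authors with MAS5 from affy 1.36.1, per the submitters' processing notes. Of 22810 probe sets, 64 array controls were left out. The platform annotation paired 13513 with 1 gene and 503 with several and left 8730 unnamed. Names of 13436 were updated through the TAIR10.1 table and 77 kept theirs. The build of the array's annotation is not named, so no coordinates are given. A gene was represented by its probe set with the highest mean, and no further normalization was applied. The number of arrays limits the precision, and detection calls were left out.

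Ratios of single arrays have 2-fold as threshold and no test. limma 3.58.1 in R 4.3.3 fitted genotype with experiment as a block and a variance trend, so that the 2 alleles counted as replicates. This left 1 residual and 7.68 prior degrees of freedom. The pairing comes from the stated design, in which each mutant was treated beside its own wild type. Members and lists were chosen with earlier results of these data known. Values on all arrays are given for the genes the choice named, the 3 largest mean ratios of each class, the 5 largest gaps between alleles and the 3 highest means, and here also for nad1 and nad4L. For other lists, up to 3 members with the largest mean ratio are named, besides the genes said to be singled out. NDB4, AT5G14580 and SDH1-1 follow that rule. Alternatives were other normalizations, a filter or floor on dim values, an added constant, the dimmest probe set, other thresholds, the other Col-0, no trend, no block and leaving out each array.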

Additional observations from a re-analysis of the deposited data

Results flagged for a closer look

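In 9 of the 16 genes the alleles went opposite ways against their own Col-0, on 1 array pair each, and the difference between the alleles was not tested. Over all genes 42.1% do so. The log2 ratio of nad1 was 0.14 in sfr6-3 and -0.99 in sfr6-2. That of nad5 was 1.14 in sfr6-3 and -0.24 in sfr6-2. That of nad6 was -1.13 in sfr6-3 and 0.80 in sfr6-2. The other 6 were lower than Col-0 in sfr6-3 and higher in sfr6-2, as nad6 was. cox2 stood at -0.0091 in sfr6-3 and 0.75 in sfr6-2. ccb203 stood at -1.11 in sfr6-3 and 0.79 in sfr6-2. ccb206 stood at -0.038 in sfr6-3 and 0.54 in sfr6-2. ccb382 stood at -0.13 in sfr6-3 and 0.66 in sfr6-2. ccb452 stood at -0.021 in sfr6-3 and 0.43 in sfr6-2. orfX stood at -0.11 in sfr6-3 and 0.050 in sfr6-2. Several of the sfr6-3 ratios are near 0. The sign of nad1 in sfr6-3 turned after quantile and cyclic loess normalization and with the lowest-mean probe set (-0.31), and that of orfX in sfr6-2 after all 3 other normalizations. That of cox2 in sfr6-3 turned with the 20th percentile added (0.020), and that of nad5 in sfr6-2 with the lowest-mean probe set (1.88). Against the Col-0 of the other experiment the ratios of nad6, cox2, ccb203, ccb206 and ccb452 turned in both lines.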

How the results depend on the processing

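The counts of 2-fold differences depended on the dim genes and on the control array, and the call counts of the 16 genes between mutants and Col-0 stayed at 0 in every alternative. In sfr6-3 the 3 lower and 3 higher genes were 0 and 0 with a filter at the 40th percentile, 0 and 0 with values under it raised to it, 1 and 0 with the 20th percentile added, and 1 and 1 at 3-fold. In sfr6-2 1 gene was lower after quantile normalization, cyclic loess and median centring, 1 was lower and 1 higher with the lowest-mean probe set, and 3 were lower and 5 higher at 1.5-fold. Against the Col-0 of the other experiment 0 were lower and 5 higher in sfr6-3 (median 0.69), and 5 lower and 1 higher in sfr6-2 (median -0.70). There the sign turned for 9 of the 16 genes in sfr6-3 and for 5 in sfr6-2, and of the genes 2-fold lower in sfr6-3 ccb203 stood at 0.26, nad6 at 0.29 and matR at 0.66. The sfr6-2 median was 0.00 with raised values and 0.38 with the lowest-mean probe set.

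Without the replicate block, which pairs each mutant with its own Col-0, the 16 again had 0 calls (median -0.10, smallest adjusted p 0.872), as had the nuclear lists, and limma called 0 of all genes, against 101 lower and 13 higher with it. It also called 0 of all genes without the trend, with raised values and without any 1 array, and 244 lower and 91 higher with the filter. Leaving out each array, which drops the block, the fitted median of the 16 ran from -0.60 without Col-0 replicate 2 (treated beside sfr6-2) to 0.38 without Col-0 replicate 1. ccb452 ran from -0.48 without Col-0 replicate 2 to 0.89 without Col-0 replicate 1, and stood at -0.26 without sfr6-3. nad4 ran from -0.78 to 0.11 and matR from -3.36 to 0.15, both lowest without Col-0 replicate 2 and highest without Col-0 replicate 1, and ccb382 from -0.16 without sfr6-2 to 0.69 without sfr6-3. The difference between experiments had 1 call with the filter, where its median over 5 genes was -0.17 with 3 below 0. Over the 16 the median was 0.00 with raised values, with 7 below 0 against 13, and ran from -0.98 to -0.64 with an array left out. The nuclear median was 0.12 after cyclic loess and 0.092 after median centring, ran from 0.072 without sfr6-2 to 0.33 without sfr6-3, and the filter gave 1 lower call. Cyclic loess and median centring moved the median of all genes from 0.11 to -0.02 and -0.01 in sfr6-3. Apart from the fewer genes tested under the filter and the fewer arrays when 1 is left out, the cause was not tested. Most of the 16 are dim, which limits what 1 array can show.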
